A study of Mus musculus with 6 samples.

Results

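The genes described here are 10 regulators and surface markers of early thymic progenitors, the first cells that settle in the thymus from the bone marrow: Kit, Flt3, Cd34, Cpa3, Lyl1, Lmo2, Mef2c, Hhex, Bcl11a and Erg. They were chosen by name from 19937 genes that have a probe set annotated with their symbol alone. Where a gene has several, the one with the highest mean over the 6 arrays stands for it. Each of the 10 has just 1, and all 10 were measured on all 6 arrays.

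Affymetrix arrays were used to measure RNA of double-negative (DN) thymocytes of the mouse, precursors that lack both CD4 and CD8. The 3 arrays labelled RAG-/- and Control hold DN thymocytes of Rag2-/- mice, which lack a recombinase subunit needed to assemble antigen receptor genes and whose thymocytes stop at the DN3 stage. The 3 arrays labelled DNTLX3+ and Tumoral hold sorted DN thymocytes of wild-type mice transduced with pMSCV-GFP-TLX3, a retroviral vector carrying the T-cell leukaemia homeobox gene TLX3 beside a fluorescent marker. Per the labels, the transduced cells then grew for 4 to 5 weeks on irradiated OP9-DL1 cells, a bone marrow stromal line made to present the Notch ligand Delta-like-1, in medium with interleukin 7 and Flt3 ligand. The protocol text, which is the same for all 6 samples, names thymi of C57Bl/6 mice of 4 to 6 weeks, cleared of CD4- and CD8-bearing cells on magnetic beads and then sorted by flow. The labels do not say whether the Rag2-/- cells were cultured, nor whether each replicate had a mouse or culture of its own, so the spread behind the p-values may be technical. A vector without TLX3 (pMSCV-GFP) is named in the protocol, but cells given it were not analysed here, so genotype, vector, TLX3 and possibly culture differ together and cannot be told apart.

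In the thymus, early progenitors and the DN2 cells that follow still use genes inherited from stem and multipotent progenitors, and they shut them off as Notch signals and the factors Bcl11b, Gata3 and Tcf7 commit them to the T lineage. The set includes receptors for growth factors (Kit, Flt3), surface and granule markers (Cd34, Cpa3) and transcription factors (Lyl1, Lmo2, Mef2c, Hhex, Bcl11a, Erg). Several of the factors, LMO2, LYL1, HHEX and MEF2C among them, are known as oncogenes or as markers of the immature subtypes of human T-cell acute lymphoblastic leukaemia. None of the genes is used by early T precursors alone: mast cells carry Kit and Cpa3, dendritic and B cells carry Mef2c, Bcl11a, Hhex and, for dendritic cells, Flt3, and endothelium carries Erg, Cd34, Lyl1 and Lmo2.

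Promoter windows of 3 members are shown because they cover the members with the lowest and the highest difference between the groups, Cpa3 and Kit, and Cd34, whose call depended on the scaling. Each window runs from 250 bases before to 50 bases after an annotated start, 5′ to 3′ on the gene's strand, from RefSeq on GRCm38.p6. Capitals mark GATAA or its reverse complement TTATC, the core bound by GATA factors, and CANNTG, the E-box core bound by factors of the LYL1 and TAL1 class. The windows lie at chr3:20242132-20242431 on the minus strand for Cpa3, at chr1:194938571-194938870 on the plus strand for Cd34 and at chr5:75574737-75575036 on the plus strand for Kit.
Cpa3: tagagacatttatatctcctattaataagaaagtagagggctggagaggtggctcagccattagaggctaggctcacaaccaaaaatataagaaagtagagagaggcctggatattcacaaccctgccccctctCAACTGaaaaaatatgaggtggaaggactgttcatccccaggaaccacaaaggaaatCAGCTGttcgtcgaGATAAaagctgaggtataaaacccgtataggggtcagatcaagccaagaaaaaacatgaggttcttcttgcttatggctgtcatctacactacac
Cd34: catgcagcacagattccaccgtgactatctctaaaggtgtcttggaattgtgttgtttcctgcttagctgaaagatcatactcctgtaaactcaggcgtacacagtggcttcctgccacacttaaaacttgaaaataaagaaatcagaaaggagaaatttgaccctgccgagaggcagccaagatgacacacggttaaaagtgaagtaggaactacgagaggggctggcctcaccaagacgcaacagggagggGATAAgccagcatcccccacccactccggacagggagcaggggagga
Kit: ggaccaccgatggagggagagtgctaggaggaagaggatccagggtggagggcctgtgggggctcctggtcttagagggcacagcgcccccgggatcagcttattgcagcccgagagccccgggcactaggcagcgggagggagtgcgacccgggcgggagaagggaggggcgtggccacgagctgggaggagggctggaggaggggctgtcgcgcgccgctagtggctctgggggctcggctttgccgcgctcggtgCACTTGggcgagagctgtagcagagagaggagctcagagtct
The Cpa3 window holds 2 E-box cores and 1 GATAA just upstream of the start, the Cd34 window holds 1 GATAA and no E-box core, and the Kit window holds 1 E-box core and no GATAA. Of the 10 members, 9 have windows in the table, 14 windows in all. GATAA stood in 4 of the 14 windows, 1 each of Cpa3, Cd34, Erg and Mef2c, and in 25.4% of all 32851 windows, and CANNTG in 9 of the 14 and in 72.3% of all. On either strand, CAGGTG, which is 1 form of CANNTG, was found for Lyl1 and Erg (20.2% of all windows), CAGCTG, another form, for Cpa3 (16.3%), and TGTGGT, the core bound by RUNX factors, for Cpa3 (16.8%). CCGGAAG, an ETS core, was found for Lyl1 (8.86%), and TAATTG, a homeobox core, for Erg and Mef2c (8.0%). A match is a description of these letters, not a site.

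Arrays of a group resembled each other, with a mean correlation to the other arrays of the group of 0.994 on each Rag2-/- array and of 0.976 to 0.981 on the TLX3 arrays. The TLX3 arrays had a narrower signal range, with an interquartile range of 2.47 to 2.85 log2 units against 3.09 to 3.18 for Rag2-/-, and the median log2 difference over all genes was 0.11 (differences throughout are TLX3 less Rag2-/-). It was 0.04 after a second quantile normalization and 0.00 after cyclic loess. Tlx3 itself was at 5.40, 5.42 and 5.52 in the Rag2-/- arrays and at 7.09, 6.52 and 6.45 in the TLX3 arrays. Rag2 was at 8.02 and 7.72 in the group means, which does not check the labels, since the position of its probes against the deletion is unknown here. The array medians were 6.22 to 6.35, and detection calls were not used here, so a level under them may be background.

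Of the 10 genes, Cpa3 alone was called, as lower in the TLX3 arrays, at a limma adjusted p under 0.05 and a log2 difference of at least 1 in size. Over all genes, 5.07% were called lower and 1.44% higher, 6.51% in all. None of the 10 was called higher. At the adjusted p alone, 5 of the 10 were lower (Cpa3, Cd34, Erg, Mef2c and Lmo2) and 0 higher, where 19.4% of all genes were lower and 23.0% higher, 42.4% in all. The groups did not overlap for 7 of the 10, with 5 lower and Kit and Bcl11a higher in the TLX3 arrays, where 26.0% of all genes lay apart as lower and 32.3% as higher, 58.3% in all. The median difference of the 10 was -0.44, against 0.11 over all genes.

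**Figure D1:**
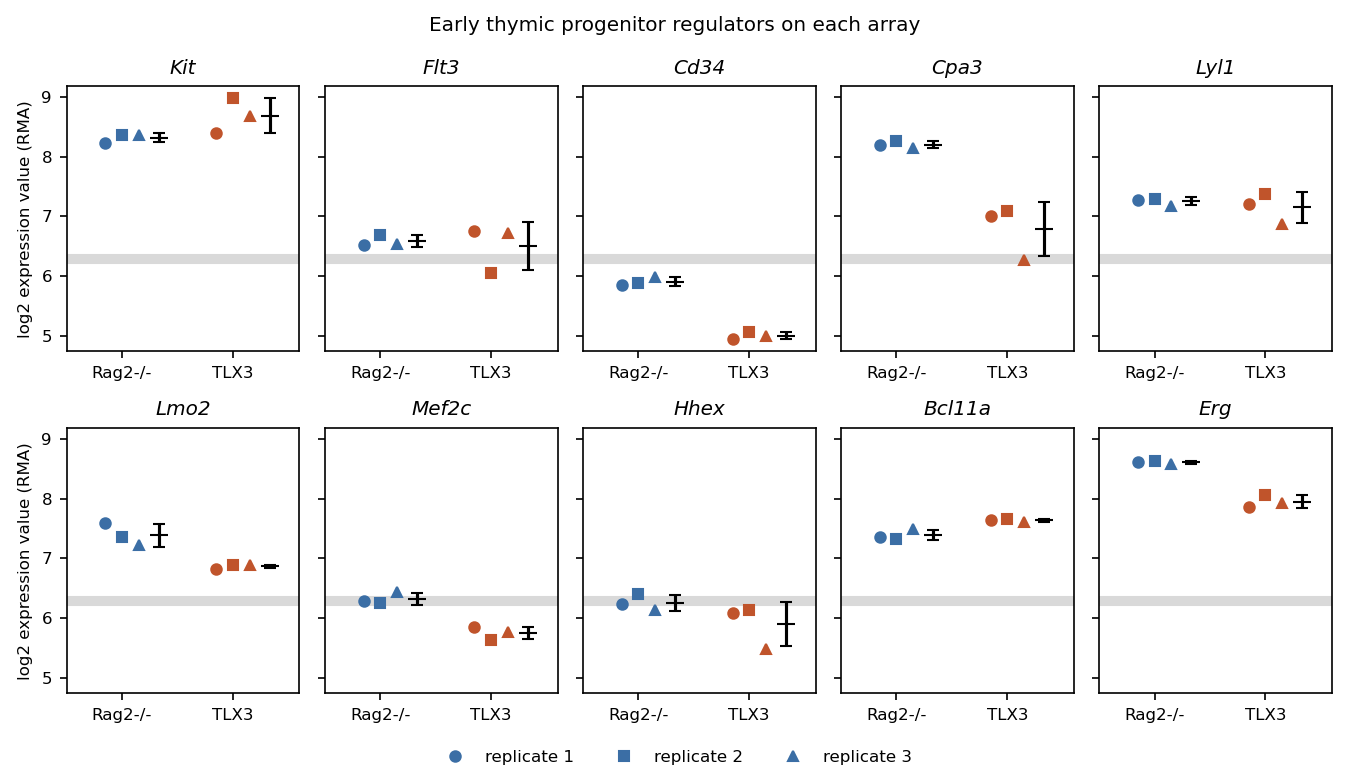
Log2 expression value (RMA, vertical axis) of each gene on the 3 Rag2-/- arrays (blue) and the 3 TLX3 arrays (orange), with the symbol shape giving the replicate, the black mark the mean ± SD, and the grey band the range of array medians. Cpa3, Cd34, Erg, Mef2c and Lmo2 lie lower on all TLX3 arrays, Kit and Bcl11a lie higher, and Flt3, Lyl1 and Hhex overlap.

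Among the receptors, Kit, the receptor for stem cell factor that marks early progenitors and DN2 cells, was not called and was not lower on any TLX3 array than on the Rag2-/- arrays. It stood at 8.23, 8.37 and 8.36 in the Rag2-/- arrays and at 8.39, 8.98 and 8.68 in the TLX3 arrays. All 3 TLX3 arrays lay above all 3 Rag2-/- arrays, by a narrow margin for TLX3 replicate 1. The log2 difference was 0.36 ± 0.16 (SE, n = 3 per group; 95% interval -0.00 to 0.73; limma adjusted p = 0.0951), so it did not pass the threshold. It passed the adjusted p alone after a second quantile normalization (0.57, adjusted p = 0.0115), after cyclic loess (0.54, adjusted p = 0.0117), with array weights (0.42, adjusted p = 0.0236) and without TLX3 replicate 1 (0.51, adjusted p = 0.0158), in each case short of the minimum difference of 1. In rank among the probe sets of its own array, the Kit probe set moved from between the 77.7th and 80.6th percentile on the Rag2-/- arrays to between the 84.9th and 88.9th on the TLX3 arrays.

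Flt3, the receptor for Flt3 ligand and a mark of the earliest progenitors, was near the array medians in both groups. It stood at 6.51, 6.70 and 6.55 in the Rag2-/- arrays and at 6.76, 6.05 and 6.72 in the TLX3 arrays. TLX3 replicate 2 was lowest of all 6 and replicate 1 highest, so the groups overlapped. The difference was -0.08 ± 0.19 (SE; 95% interval -0.51 to 0.36; limma adjusted p = 0.763) and turned to 0.16 without TLX3 replicate 2. In the deposited values the interval covers changes of either sign and stops short of 1 log2 unit. Near the array medians part of the signal may be background, so it cannot exclude a larger change in RNA. The transduced cells were grown with added Flt3 ligand, as the labels state. Transcripts of Flt3l, the ligand's own gene, were lower in the TLX3 arrays by 0.68 ± 0.13 (SE; limma adjusted p = 0.00359), under the minimum difference, and Kitl, the gene of stem cell factor, was under the array medians in both groups (5.07 and 4.39).

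Cpa3, which encodes the carboxypeptidase of mast cell granules and is also transcribed in early thymic progenitors and DN2 cells, fell. It stood at 8.20, 8.26 and 8.15 in the Rag2-/- arrays and at 7.01, 7.09 and 6.27 in the TLX3 arrays. The Rag2-/- arrays were tightly grouped, all TLX3 arrays were lower, and replicate 3 lay 0.74 below the next TLX3 array, at the middle of its own array (49.8th percentile), where the signal may be background. The log2 difference was -1.41 ± 0.21 (SE, n = 3 per group; 95% interval -1.88 to -0.95; limma adjusted p = 0.00115), a level 2.66-fold lower in deposited values, and 1.80% of all genes had a lower difference. Without TLX3 replicate 3 it was -1.15 (adjusted p = 0.00081), and over the 6 fits that left out 1 array it lay between -1.56 and -1.15 and was called each time. After a second quantile normalization the difference was -1.26 and after cyclic loess -1.28, both smaller in size than in the deposited values and both called. Cpa3 was not called by limma treat, which tests for a change beyond 1 log2 unit.

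The list of other mast cell and basophil markers, which leaves out Cpa3 and Kit, was tested for the same contrast. None of its 17 measured genes was called, and 15 of the 17 had both group means at or under the array medians, among them the IgE receptor chains Ms4a2 (4.35 and 4.30) and Fcer1a (3.85 and 4.25) and the mast cell proteases Mcpt4 (4.63 and 4.77), Cma1 (4.45 and 4.80) and Tpsb2 (5.93 and 6.19). The summed signal of the list was 717 to 805 in the Rag2-/- arrays and 782 to 794 in the TLX3 arrays. At the adjusted p alone, 3 were higher (Hdc, Tpsab1 and Mcpt2) and 1 lower (Hpgds, -0.78). Of all genes, 23.0% were higher and 19.4% lower by that rule, and 6.51% were called. Without TLX3 replicate 1, Hpgds was called lower (-1.004). The median of the list was 0.14, and -0.04 after a second quantile normalization. In these bulk samples, fewer cells of a type and less RNA per cell cannot be told apart.

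The profiles over the 6 arrays closest to that of Cpa3, by distance after centring each on its own mean, were those of Rny3, a small cytoplasmic Y RNA (distance 0.195 log2 units), and Mir18, a microRNA locus (0.290). Rny3 stood at 12.05, 12.31 and 12.03 in the Rag2-/- arrays and at 10.90, 11.07 and 10.08 in the TLX3 arrays, and fell by 1.45. Mir18 fell by 1.59. Both were lowest in TLX3 replicate 3, as Cpa3 was. With 6 arrays in 2 groups, such likeness rests on the group difference and on that array.

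Cd34, the sialomucin used to mark stem cells and progenitors, was dim and lower in the TLX3 arrays. It stood at 5.85, 5.89 and 5.99 in the Rag2-/- arrays and at 4.95, 5.07 and 5.00 in the TLX3 arrays. The groups were well apart and all 6 values lay under the array medians. The difference was -0.90 ± 0.12 (SE; 95% interval -1.17 to -0.63; limma adjusted p = 0.000752), just short of the minimum of 1, and it was called as lower after a second quantile normalization (-1.08) and after cyclic loess (-1.15). Its probe set ranked at the 43.7th to 45.4th percentile of the Rag2-/- arrays and the 20.4th to 25.9th of the TLX3 arrays. Its level may be background on the TLX3 arrays, and no fold is given. Of the related sialomucins, Podxl and Podxl2 differed by 0.43 and 0.40, with group means at or under the array medians.

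**Figure D2:**
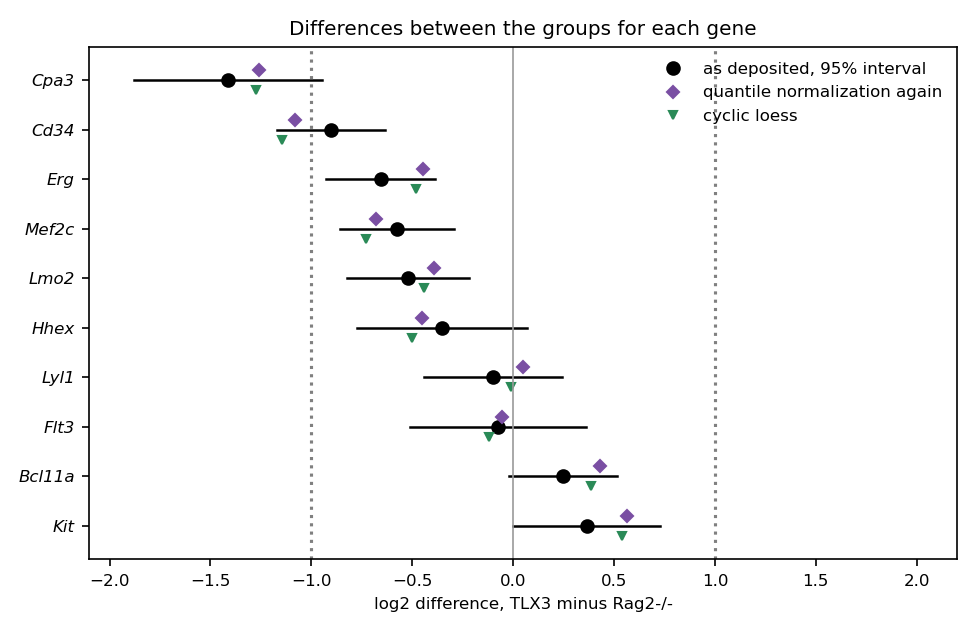
Log2 difference (TLX3 minus Rag2-/-, horizontal axis) of each gene, with black points and bars for the deposited values and their 95% limma intervals, diamonds for a second quantile normalization, triangles for cyclic loess, and dotted lines at the minimum difference of 1. Cpa3 lies at -1.41, Cd34 at -0.90 and past -1 after either rescaling, and Kit at 0.36 and above 0.5 after either.

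Lyl1 and Lmo2 belong to 1 class of complex: Lyl1, a basic helix-loop-helix factor, pairs with E proteins, and Lmo2, a LIM-domain adaptor, bridges such pairs to Ldb1 and GATA factors. Lyl1 stood at 7.28, 7.30 and 7.18 in the Rag2-/- arrays and at 7.20, 7.38 and 6.87 in the TLX3 arrays. The groups overlapped, with TLX3 replicate 2 the highest and replicate 3 the lowest of the 6. The difference was -0.10 ± 0.15 (SE; 95% interval -0.44 to 0.24; limma adjusted p = 0.603), and it turned to 0.05 after a second quantile normalization and to 0.04 without TLX3 replicate 3. Lmo2 stood at 7.59, 7.35 and 7.22 in the Rag2-/- arrays and at 6.83, 6.88 and 6.89 in the TLX3 arrays. The TLX3 arrays lay within 0.06 of each other and below every Rag2-/- array. The difference was -0.52 ± 0.13 (SE; 95% interval -0.83 to -0.22; limma adjusted p = 0.0135), short of the minimum difference, and it missed the adjusted p without Rag2-/- replicate 1 (-0.42, adjusted p = 0.0728).

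Of 20 partners and relatives in such complexes, 1 was called lower, the E protein Tcf4 (-1.01), and none higher, where 5.07% of all genes were called lower. Tcf4 was not called after a second quantile normalization, after cyclic loess, with array weights, by limma treat or without TLX3 replicate 1. At the adjusted p alone, 4 were lower and 6 higher, where 19.4% of all genes were lower and 23.0% higher. Of the 6, Ldb2, Lmo1, Lmo3 and Nhlh1 were under the array medians in both groups, and Ssbp3 and Gata3 were above them. The median of the 20 was 0.27, or 0.25 after a second quantile normalization and 0.21 after cyclic loess. Ldb1, the factor that Lmo2 binds, was at 10.75 and 10.26 in the group means (-0.50), and the corepressor Cbfa2t3 at 9.20 and 8.84 (-0.37, limma adjusted p = 0.0475). Ssbp3, which stabilises Ldb1, was at 10.01 and 10.52 (0.51), and Gata3 at 9.36 and 10.01 (0.66). Tal1, the closest relative of Lyl1, differed by 0.38 without passing the threshold (limma adjusted p = 0.0992), and the groups lay apart. Of the LIM-only relatives, Lmo1 (0.51) and Lmo3 (0.47) were under the array medians in both groups, and Lmo4 differed by 0.19. After cyclic loess Lmo1 was at 0.23 and Lmo3 at 0.16.

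Erg, an ETS factor of stem cells that is shut off as T-lineage cells commit, was lower in the TLX3 arrays by several times its spread. It stood at 8.62, 8.62 and 8.58 in the Rag2-/- arrays and at 7.86, 8.06 and 7.93 in the TLX3 arrays. Every TLX3 array was lower by more than the range within either group. The difference was -0.66 ± 0.12 (SE; 95% interval -0.93 to -0.39; limma adjusted p = 0.00311), a level 1.58-fold lower that fell short of the minimum difference. It was -0.44 after a second quantile normalization and -0.48 after cyclic loess. Its relative Fli1, also an ETS factor of blood progenitors, was at 9.58 and 9.36 (-0.22, limma adjusted p = 0.2).

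Mef2c, a MADS-box factor of lymphoid and myeloid progenitors, stood at 6.29, 6.25 and 6.44 in the Rag2-/- arrays and at 5.85, 5.64 and 5.77 in the TLX3 arrays. The Rag2-/- values were at the array medians, and all TLX3 values were below them. The difference was -0.57 ± 0.13 (SE; 95% interval -0.86 to -0.29; limma adjusted p = 0.00676). Of its relatives, Mef2a differed by -0.05 (0.16 after a second quantile normalization), and Mef2d by 0.44, past the adjusted p alone. Hhex, a homeobox factor of stem and early lymphoid cells, stood at 6.23, 6.40 and 6.13 in the Rag2-/- arrays and at 6.09, 6.13 and 5.48 in the TLX3 arrays. TLX3 replicate 3 lay 0.61 below the next array, and replicate 2 was level with the lowest Rag2-/- array. The difference was -0.35 ± 0.19 (SE; 95% interval -0.77 to 0.07; limma adjusted p = 0.150) and -0.14 without TLX3 replicate 3. With array weights Hhex passed the adjusted p alone (-0.52, adjusted p = 0.0284).

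Bcl11a, a zinc-finger factor needed for lymphoid progenitors and relative of the T-lineage factor Bcl11b, stood at 7.37, 7.32 and 7.49 in the Rag2-/- arrays and at 7.64, 7.67 and 7.61 in the TLX3 arrays. The TLX3 arrays were within 0.06 of each other and above every Rag2-/- array. The difference was 0.25 ± 0.12 (SE; 95% interval -0.02 to 0.51; limma adjusted p = 0.116), and it passed the adjusted p alone after a second quantile normalization (0.43, adjusted p = 0.0186) and cyclic loess (0.39, adjusted p = 0.0257). Bcl11b, which represses progenitor genes at commitment, went the other way, from 11.20 to 10.55 (-0.65, limma adjusted p = 0.0107), short of the minimum difference.

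The TLX3 arrays varied more than the Rag2-/- arrays for 7 of the 10 genes. The widest spread was that of Cpa3 (SD 0.45 in the TLX3 arrays and 0.06 in the Rag2-/- arrays), followed by Flt3 (0.40 and 0.10) and Hhex (0.36 and 0.14), against median SDs over all genes of 0.20 and 0.10. No single TLX3 array was low throughout. Replicates 1, 2 and 3 were lowest for 4, 2 and 4 of the 10 genes, with replicate 3 standing lowest for Cpa3, Hhex and Lyl1 and replicate 2 for Flt3.

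Of 17 further genes of stem cells and early thymic progenitors that were measured, 3 fell and none rose. Of all genes, 5.07% were called lower and 1.44% higher. The median of the 17 was -0.23, or -0.12 after a second quantile normalization and -0.13 after cyclic loess. The 3 that fell were Csf1r, the receptor for macrophage colony-stimulating factor (-1.59), the adhesion receptor Cd44 (-1.35) and the TALE homeobox factor Meis1 (-1.32). Each had a TLX3 mean under the array medians. Csf1r is also on the dendritic and myeloid list. At the adjusted p alone, 7 of the 17 were lower and 3 higher, where 19.4% of all genes were lower and 23.0% higher. Spi1, the ETS factor PU.1 of early progenitors and myeloid cells, was lower by 0.75 (limma adjusted p = 0.0167), and Mycn by 0.73. The zinc-finger factor Gfi1b was higher by 0.52 and Hoxa10 by 0.73, the latter at or under the array medians in both groups.

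Of 20 genes of T-lineage commitment, 3 fell, Dtx1, Il2ra and Ptcra, and 0 rose, where 5.07% of all genes were called lower and 1.44% higher. At the adjusted p alone, 11 were lower and 3 higher, where 19.4% of all genes were lower and 23.0% higher. The median was -0.40, against 0.105 over all genes. Ptcra was not called after cyclic loess (-0.97), and limma treat called none of Dtx1, Il2ra and Ptcra. The median of the 10 progenitor genes was -0.44, and no test of a difference between the lists was made. Of 23 genes of Kit and Flt3 ligands and signalling, 1 fell, the ubiquitin ligase Cblb (-1.09), none rose and the median was -0.34. The share of all genes called lower was 5.07%. Cblb was not called after cyclic loess, with array weights, by limma treat or without TLX3 replicate 1. Socs2 (-0.47) was called lower when the probe sets of a gene were averaged (-1.35, limma adjusted p = 0.000248). Further lower values past the adjusted p alone were those of Plcg1 (-0.73), Pik3r1 (-0.72), the adaptor Gab2 (-0.71) and the kinase Fes (-0.61), and Grb2, the adaptor that couples receptors to Ras, was higher by 0.41. Beside 5.07% of all genes called lower, 1 of 18 paralogs of the members fell (Csf1r, of the receptor class of Kit and Flt3) and none rose. Their median was 0.37, or 0.19 after a second quantile normalization and 0.15 after cyclic loess, and 10 of the 18 had both means at or under the array medians. Among the relatives of Cpa3, the pancreatic carboxypeptidase Cpa1 (0.73), Cpa4 (0.63) and Cpa6 (0.45) passed the adjusted p alone as higher, Cpb1 (0.17) did not, and all were at or under the array medians in both groups. After cyclic loess these differences were 0.50, 0.32, 0.13 and -0.14. Tal2 differed by 0.36, from a mean under the array medians, Pdgfra by 0.07 (-0.18 after cyclic loess) and Pdgfrb by -0.35, none past the adjusted p.

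**Figure D3:**
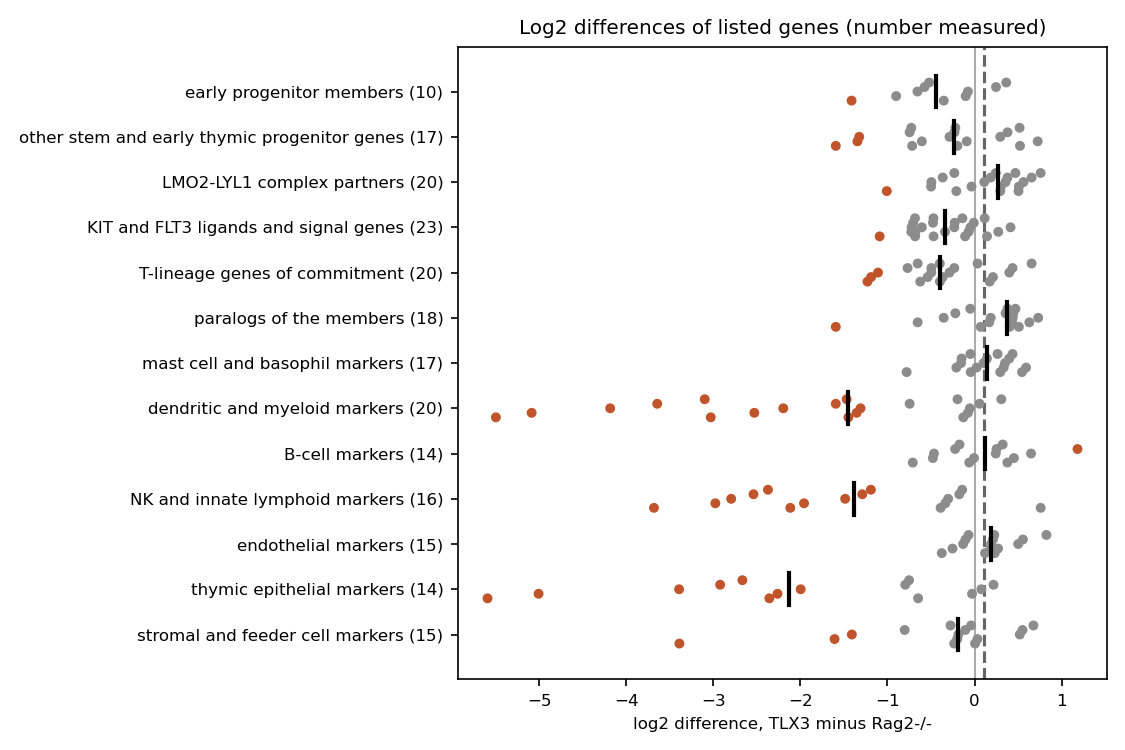
Log2 difference (TLX3 minus Rag2-/-, horizontal axis) of every measured gene of each list, with called genes in orange, others in grey, list medians as black bars and the median of all genes as a dashed line. The 10 progenitor genes have a median of -0.44, against -1.46 for the dendritic and myeloid, -1.39 for the NK and -2.13 for the thymic epithelial markers, and each of these lists also holds genes near or above 0.

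Markers of other cells moved with the groups, and their part in the differences above was not tested. Of 20 dendritic and myeloid markers, Flt3 among them, 13 fell, 7 were not called, and the summed signal was 9944 to 11270 in the Rag2-/- arrays and 3262 to 3512 in the TLX3 arrays. H2-Aa (-5.50), Cd74 (-5.09) and H2-Ab1 (-4.19), of MHC class II presentation, fell most, and which cells carried them was not tested. The plasmacytoid dendritic cell gene Siglech fell by 1.45 to a mean under the array medians (4.93), and Irf8 by 1.35. Among the 7 not called, Bst2 (0.06), Spib (-0.13) and Ly6d (-0.20) were above the array medians in both groups. Batf3 differed by 0.31 and Spi1 by -0.75. Of 16 NK and innate lymphoid markers 10 fell, with sums of 3859 to 4495 and 1800 to 2321. Of 14 thymic epithelial markers 8 fell, with sums of 8595 to 15580 and 1748 to 1959. Over all genes, 5.07% were called lower and 1.44% higher. At the adjusted p alone, 11 NK markers were lower and 1 higher, Gzma (0.76), and 11 epithelial markers were lower and 0 higher. By that rule 19.4% of all genes were lower and 23.0% higher. Epcam stood at 8.50 and 8.47 in the group means, and Aire differed by 0.22. Of the members, Cpa3, Cd34, Erg, Mef2c and Lmo2 were lower, and Kit (0.36) and Bcl11a (0.25) lay on the other side of 0.

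Markers of B cells and endothelium, which also use several of these genes, were mostly dim. Of 14 B-cell markers, Pou2af1 rose (1.18) and none fell, with sums of 1051 to 1093 in the Rag2-/- arrays and 966 to 1048 in the TLX3 arrays. The shares of all genes called were 1.44% higher and 5.07% lower. Pax5 (5.42 and 5.80), Ebf1 (4.99 and 4.98), Cd79a (4.05 and 4.37) and Ms4a1 (4.11 and 4.56) were under the array medians in both groups. Cd79b (8.61 and 7.90) and Blk (7.21 and 7.04) were above them. At the adjusted p alone, 4 of the 14 were higher and 3 lower, Cd79b (-0.71), Igll1 (-0.48) and Blnk (-0.47). Over all genes, 23.0% were higher and 19.4% lower by that rule. The median of the B-cell list was 0.12, or -0.03 after a second quantile normalization and -0.07 after cyclic loess. Ms4a1 differed by 0.45 and Pax5 by 0.38, and by 0.14 and 0.15 after cyclic loess. None of 15 endothelial markers was called, with sums of 1457 to 1621 and 1612 to 1660, though Plvap (0.83) was called higher without Rag2-/- replicate 3 (1.17). The endothelial median was 0.19, or 0.08 after a second quantile normalization and 0.03 after cyclic loess. Cdh5 (5.74 and 5.36), Kdr (4.98 and 4.85) and Emcn (4.57 and 4.46) were under the array medians in both groups, and Pecam1, which blood cells also carry, was at 9.10 and 9.03. Of 15 stromal and feeder cell markers 3 fell, Vcam1 (-3.39), Cxcl12 (-1.61) and Dcn (-1.41), and none rose, with sums of 1650 to 2058 and 1099 to 1199. At the adjusted p alone, 4 of the 15 were lower and 3 higher, where 19.4% of all genes were lower and 23.0% higher. The 3 were Col5a1 (0.68), above the array medians in both groups, Lox (0.55), under them, and Acta2 (0.52). Col1a1 was at 7.48 and 7.49.

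**Figure D4:**
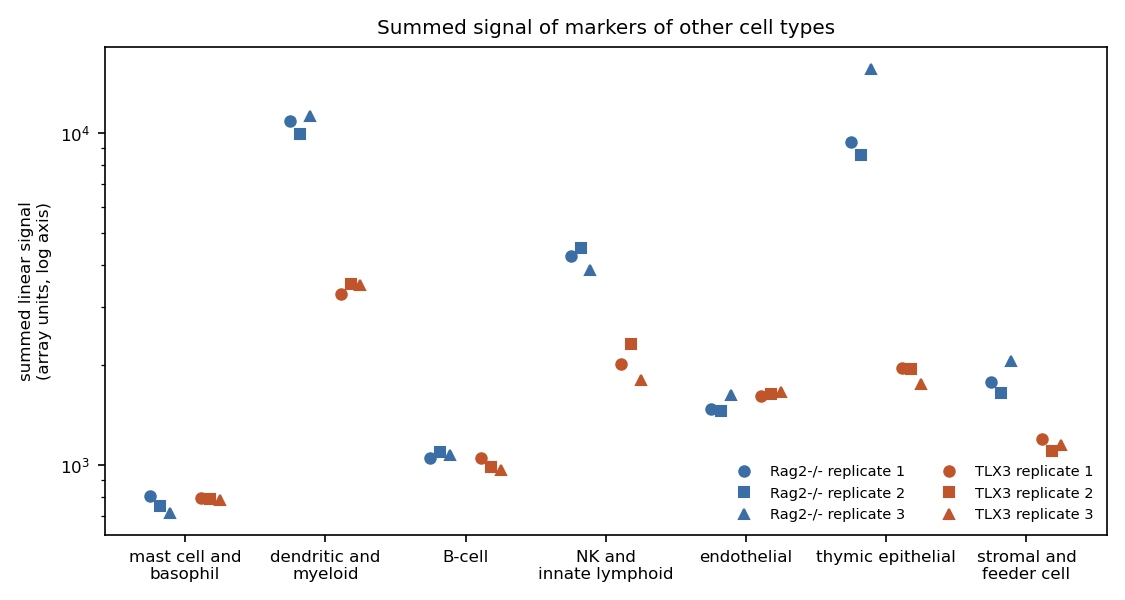
Summed linear signal (array units, log axis) of each list of markers of other cell types on each array, Rag2-/- in blue and TLX3 in orange, with the symbol shape giving the replicate. The dendritic and myeloid, B-cell, NK, thymic epithelial and stromal sums are lower on all TLX3 arrays, by the least for B cells (966 to 1048 against 1051 to 1093). The mast cell sums overlap between the groups, as do the endothelial sums (1612 to 1660 on the TLX3 arrays against 1457 to 1621). Each sum includes the background signal of its probe sets.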

How the data were processed

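RNA of all 6 samples was labelled with biotin and read on 1-colour Affymetrix arrays, and the titles of the samples gave group and replicate. The authors deposited log2 values for each probe set, made with RMA (background correction, quantile normalization, probe summary) using affy and R 2.9.0, per the submitters' processing notes. No genome build is named. Of 34760 probe sets, the 6568 with the lowest numbers carry no gene, were treated as controls and were dropped, which left 28192 to test. Of these, 21640 have a single symbol, and the 1321 with several named no gene.

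Group differences came from limma 3.58.1 under R 4.3.3 (lmFit, eBayes, two-sided p, no covariate), with Benjamini-Hochberg adjustment across all 28192. With 3 arrays against 3, an exact permutation test cannot go below 0.1 and was not used. The number of arrays limits the precision. Summed signals are sums of 2 to the power of the log2 values. The members and lists were chosen with earlier results of these data known. All 10 members are named, up to 3 called genes per list and direction, measured paralogs, and the 2 profiles nearest each called member. Further list genes were chosen after their values were seen. Listed genes without a single-symbol probe set, such as Runx2, Ly6a and Lyn, were not analysed here. The labels give no pairing of the arrays by replicate number. The deviations of same-numbered arrays correlated at -0.108, 0.0604 and -0.0017, which cannot exclude a weak pairing.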

Additional observations from a re-analysis of the deposited data

How the results depend on the processing

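Of 177 values of the 10 genes under 18 alternatives, 167 kept their direction and their side of the threshold. The exceptions under other scalings were Cd34, called lower at -1.08 after a second quantile normalization and at -1.15 after cyclic loess, so that 2 of the 10 were called lower in each, and Lyl1, at 0.051 after a second quantile normalization. Without a minimum difference, Lmo2 (-0.52), Mef2c (-0.57), Erg (-0.66) and Cd34 (-0.90) were called too, which made 5 of the 10 lower, with 4595 genes higher and 3858 lower in all, and 31 higher and 71 lower in the other lists (against 1 and 41). By limma treat, Cpa3 (-1.41) and so 0 of the 10 were called, with 7 genes higher and 122 lower in all and 0 and 21 in the other lists. Without probe sets under the median, 7 of the 10 were left, with a median of -0.10. In that fit 147 genes were called higher and 820 lower, against 288 and 1010 with all 28192 probe sets. The replicate number as a block changed no call of the 10 genes (Cpa3 -1.41, adjusted p = 0.000825) and no count by over 1.5 times.

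Over the 6 fits that left out 1 array, Flt3 lay between -0.20 and 0.16, Lyl1 between -0.22 and 0.038 and the median of the 10 between -0.49 and -0.36. In these fits 216 to 431 genes were called higher, 820 to 1157 lower, and 1 to 2 of the other lists higher. The sign changes came without TLX3 replicate 2 for Flt3 (0.16) and without TLX3 replicate 3 for Lyl1 (0.038), and the causes were not tested. Levels under the array medians may be background, which limits Cd34, Mef2c and Hhex, and also TLX3 replicate 3 of Cpa3 (6.27) and TLX3 replicate 2 of Flt3 (6.05).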
